A study of Homo sapiens with 4 samples.

Results

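The MHC class I antigen presentation genes examined here were HLA-B, HLA-C, HLA-E, B2M, TAP1, TAP2, TAPBP, PSMB8 and PSMB9. They were chosen by symbol, and all 9 were found among the 44591 genes of the files, which hold 19233 protein-coding genes. All 9 were among the 12165 protein-coding genes called detected, that is with a mean above 1 TPM, a count per length scaled to the same total in every library, over the replicates. RNA-seq had been performed on total RNA of HaCaT cells, an immortalized human keratinocyte line, in 4 biological replicates without any treatment. The 4 libraries formed a single group, so no condition was compared with another. The questions addressed are how high each gene stood, how the genes stood to each other within a replicate, and how much they varied between replicates. HaCaT is one long-cultured line that grows in serum, which limits it as a model of epidermis.

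MHC class I molecules display short peptides from inside the cell to CD8+ T cells and carry ligands for receptors of natural killer cells. The proteasome cuts proteins into peptides, the TAP transporter carries them into the endoplasmic reticulum, and tapasin holds the empty molecule near the transporter until a peptide binds. The complete molecule consists of a heavy chain, its light chain beta-2 microglobulin and the peptide, and many genes of the pathway are known to respond to interferons.

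Since interferon-response elements are a known feature of these genes, their promoters were read first. The RefSeq table for GRCh38.p14 gave windows from 250 bases before to 50 bases after the annotated start, in 10 entries for 8 of the 9 genes. HLA-E had no entry. The letters GAAANNGAAA, an interferon-stimulated response element (ISRE), were searched on both strands and stood in 5 of these 8 genes, against 3.57% of all 35116 promoter windows. The 60-base stretches of these 5 genes are shown because they hold the match, which is in capitals. All are written 5′ to 3′ on the strand of the gene, and TTTC in capitals marks a match on the other strand.
B2M, chr15:44711343-44711402, plus strand: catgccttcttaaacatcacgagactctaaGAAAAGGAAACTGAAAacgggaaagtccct
TAP1, chr6:32853809-32853868, minus strand: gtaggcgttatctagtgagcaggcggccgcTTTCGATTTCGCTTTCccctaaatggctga
TAP2, chr6:32838768-32838827, minus strand: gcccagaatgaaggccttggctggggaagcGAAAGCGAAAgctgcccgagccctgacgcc
TAPBP, chr6:33314069-33314128, minus strand: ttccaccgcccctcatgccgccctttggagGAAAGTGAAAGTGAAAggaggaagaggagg
PSMB8, second entry, chr6:32844022-32844081, minus strand: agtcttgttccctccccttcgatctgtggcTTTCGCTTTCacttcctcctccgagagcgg

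B2M, TAP1 and TAPBP each held a pair of overlapping matches, which make up the longer capital runs. HLA-B and HLA-C had no match to the full letters. Both held the shorter form, GAANNGAAA or GAAANNGAA, which stood in 14.5% of all windows and overlaps the full form wherever that occurs. With the shorter form counted, 7 of the 8 genes held a match. The HLA-B and HLA-C stretches are shown because a match to the NF-kB motif lies just before the shorter form, both in capitals.
HLA-B, chr6:31357307-31357366, minus strand: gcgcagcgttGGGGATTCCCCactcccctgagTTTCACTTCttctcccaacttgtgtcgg
HLA-C, chr6:31272215-31272274, minus strand: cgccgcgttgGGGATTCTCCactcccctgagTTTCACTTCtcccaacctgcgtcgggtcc

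The NF-kB motif stood in 5 of the 8 genes, against 11.3% of all windows. The letters TTCNNNGAA, the gamma-activated site, stood in 2 of the 8, TAP1 and PSMB8, against 7.66% of windows. Both matches lay in the second entry of the gene, which for TAP1 is not the window of the stretch shown. For each motif a gene counted when any of its entries held a match, while the shares are of single windows. No searched motif stood in the window of PSMB9. TAP1 and PSMB9 start 488 bases apart and are read away from each other, with the TAP1 match to the full ISRE letters between them. A match is a description of the letters and not a measured binding site.

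The total count was 73082279 in replicate 1 and between 17056035 and 19745170 in replicates 2 to 4. Replicate 1 stood apart from the others. Only 76.1% of its counts fell on protein-coding genes, against 95.3% to 96.4% in replicates 2 to 4, so levels are given as TPM over protein-coding genes and results are given with and without replicate 1. All 10 keratinocyte markers were detected, with a summed level of 15166 to 21216 TPM. Of 10 leukocyte markers, CD14 and CD68 were detected, PTPRC had 3 counts in replicate 1 and 0 in replicates 2 to 4, and 4 were at 0 in all replicates. Of 4 endothelial markers none was detected by its mean and 2 were at 0 in all replicates, with a sum of 0.86 to 2.36 TPM. VWF had 507, 7, 0 and 6 counts in replicates 1 to 4, and CDH5 had 0, 21, 32 and 46. Of 7 fibroblast markers 2 were detected, with a sum of 5.20 to 9.70 TPM for the 7. These were LUM, with 172, 0, 23 and 6 counts, and COL1A1, with 72, 194, 100 and 377. In RNA of whole cultures, fewer cells with a transcript and less of it per cell cannot be told apart.

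The 9 genes together took up 0.495%, 0.658%, 0.699% and 0.463% of the protein-coding TPM in replicates 1 to 4. The means ran from 3425 TPM for B2M through HLA-B, HLA-C, HLA-E, PSMB9, TAPBP, TAP1 and PSMB8 down to 81.3 TPM for TAP2. These means stood at percentiles 82.1 to 99.8 of the detected genes. B2M was the highest, HLA-B the next and TAP2 the lowest in all 4 replicates. Differences between neighbours in this order were tested within replicates with a two-sided exact sign-flip permutation test on log2(TPM + 1). With 4 replicates a difference of one sign in all of them is matched by 2 of the 16 sign patterns. The smallest exact p is therefore 0.167 after Benjamini-Hochberg adjustment over the 12 pairs tested, no pair could pass 0.05, and p-values measure only the spread between these 4 libraries. In 5 of the 8 neighbouring pairs the order held in 4 of 4 replicates.

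**Figure D1:**
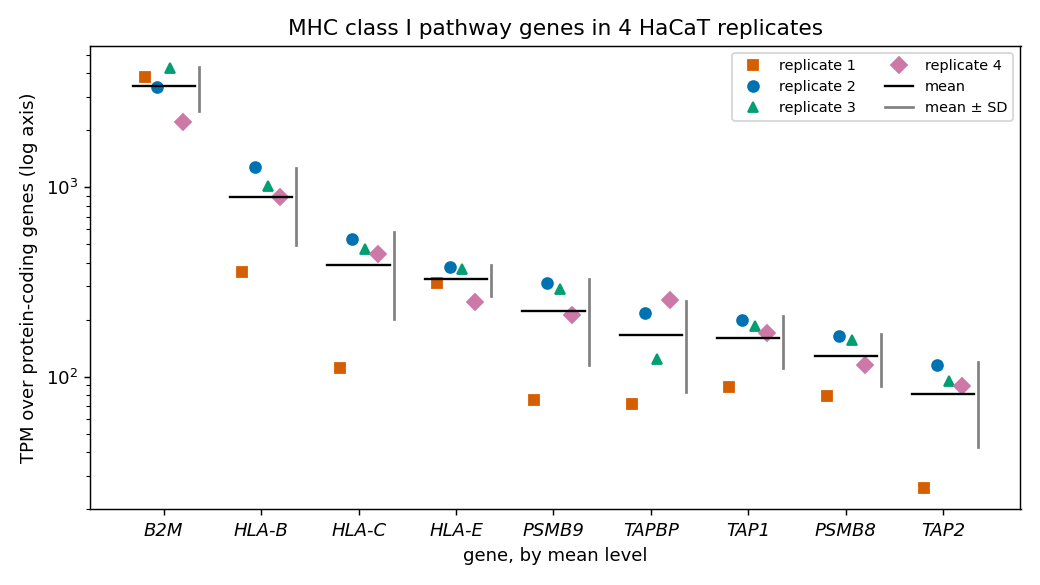
Level of each gene in the 4 HaCaT replicates, as TPM over protein-coding genes on a log axis, with symbols for replicates, a black line for the mean and a grey bar for mean ± SD (n = 4). B2M stands highest at 2200 to 4276 TPM, and replicate 1 is the lowest symbol for 7 of the 9 genes.

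The heavy chains come first by role. HLA-B, a classical heavy chain (hg19 chr6:31321643-31325022, minus strand, as given in the files), had 355, 1273, 1018 and 894 TPM in replicates 1 to 4, a mean of 885 ± 387 TPM (SD, n = 4). These values rest on 10727 to 14739 counts. Replicate 1 was low and the other 3 lay within 1.42-fold of each other. HLA-C, the classical heavy chain best known as a ligand of killer-cell receptors (chr6:31236526-31239913, minus strand), had 111, 532, 474 and 445 TPM, a mean of 390 ± 190 TPM (SD, n = 4). Its highest and lowest replicates differed 4.77-fold, the widest of the 9 genes, and 1.20-fold without replicate 1.

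HLA-E, which presents leader peptides of other class I chains to natural killer cells (chr6:30457183-30461982, plus strand), behaved otherwise. It had 312, 379, 372 and 248 TPM, a mean of 328 ± 60.9 TPM (SD, n = 4). Replicate 4 and not replicate 1 was its lowest, and its spread of 1.53-fold was the narrowest of the 9 genes. HLA-B exceeded HLA-C in 4 of 4 replicates, by 1.26 ± 0.29 on the log2 scale (SD, n = 4; exact test, adjusted p = 0.167). HLA-C exceeded HLA-E in replicates 2 to 4, but in replicate 1 it lay below it, with a log2 difference of -1.48. The mean difference of 0.05 ± 1.04 (SD, n = 4; exact p = 1, adjusted p = 1) did not exceed its spread, and without replicate 1 it was 0.56 ± 0.25 (SD, n = 3). Class I genes share near-identical stretches, and how reads that match several of them were counted is not given in the sources used here, so the split between HLA-B, HLA-C and HLA-E is uncertain.

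B2M, the light chain shared by all class I molecules (chr15:45003685-45010357, plus strand), had 3831, 3393, 4276 and 2200 TPM, a mean of 3425 ± 893 TPM (SD, n = 4). It is the only one of the 9 genes outside chromosome 6. Replicate 3 was high and replicate 4 low, with replicate 1 above replicate 2. B2M exceeded HLA-B in 4 of 4 replicates, by 2.05 ± 0.98 on the log2 scale (SD, n = 4; exact test, adjusted p = 0.167).

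The level of B2M relative to its partners differed between replicates. Its TPM divided by the summed TPM of HLA-B, HLA-C and HLA-E was 4.92, 1.55, 2.29 and 1.39, in the order of the replicates. The summed TPM of these 3 heavy chains was 779, 2184, 1864 and 1587. The count of B2M per base was 10.8 times that of HLA-B in replicate 1 (95% Clopper-Pearson interval 10.6 to 11.0) and 2.46 times in replicate 4 (2.40 to 2.52). Intervals cover counting error only. The ratio of B2M to HLA-E varied less, from 8.85 to 12.3. The deposited length of B2M is 987 bases, against 2378 for the union of its protein-coding exons in GENCODE release 29, so its level per length depends on which transcripts are counted. With the GENCODE lengths its mean was 1901 TPM, and its ratio to HLA-B was 4.76, 1.18, 1.86 and 1.09 in the 4 replicates, still above 1 in each. Its ratio to the summed heavy chains was then 2.07, 0.662, 0.975 and 0.59.

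TAP1 and TAP2 form the peptide transporter. TAP1 (chr6:32812986-32821748, minus strand) had 88.2, 198, 185 and 169 TPM, a mean of 160 ± 49.5 TPM (SD, n = 4). Without replicate 1 its values lay within 1.17-fold, the narrowest spread of the 9 genes in replicates 2 to 4. TAP2 (chr6:32789610-32806600, minus strand) had 25.7, 115, 95.05 and 89.4 TPM, a mean of 81.3 ± 38.6 TPM (SD, n = 4). It was lowest in replicate 1 by a wide margin, 4.46-fold below replicate 2, and the other 3 lay within 1.29-fold.

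The subunits of the transporter were not at equal levels. TAP1 exceeded TAP2 in 4 of 4 replicates, by 1.10 ± 0.43 on the log2 scale (SD, n = 4; exact test, adjusted p = 0.167). The ratio of TAP1 to TAP2 was 1.73 (1.66 to 1.80), 1.95 (1.87 to 2.02) and 1.89 (1.81 to 1.98) in replicates 2, 3 and 4. In replicate 1 it was 3.43 (3.29 to 3.56), outside the intervals of the others.

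TAPBP encodes tapasin (chr6:33267471-33282164, minus strand). It had 71.7, 216, 123 and 255 TPM, a mean of 166 ± 84.0 TPM (SD, n = 4). Unlike the other 8 genes it was highest in replicate 4, and among replicates 2 to 4 it was lowest in replicate 3. It did not differ from TAP1 beyond the spread, with a mean log2 difference of -0.04 ± 0.51 (SD, n = 4; exact p = 1, adjusted p = 1) and TAPBP higher in 2 of 4 replicates. PSMB9 exceeded TAPBP in 3 of 4 replicates, by 0.39 ± 0.65 (SD, n = 4; exact p = 0.375, adjusted p = 0.45).

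PSMB8 and PSMB9 are catalytic subunits of the immunoproteasome, in which they take the places of PSMB5 and PSMB6. PSMB8 (chr6:32808494-32812712, minus strand) had 79.1, 164, 156 and 115 TPM, a mean of 129 ± 39.4 TPM (SD, n = 4). PSMB9 (chr6:32821938-32827628, plus strand) had 75.7, 313, 290 and 211 TPM, a mean of 222 ± 107 TPM (SD, n = 4). Both were lowest in replicate 1 and, among the others, in replicate 4. PSMB8 spanned 2.07-fold over the replicates and PSMB9 4.14-fold.

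Each immunoproteasome subunit lay below the constitutive subunit it replaces in every replicate. PSMB5 had 260, 273, 347 and 224 TPM, and the log2 difference of PSMB8 from it was -1.13 ± 0.42 (SD, n = 4; exact test, adjusted p = 0.167). PSMB6 had 472, 385, 445 and 327 TPM, and the log2 difference of PSMB9 from it was -1.04 ± 1.07 (SD, n = 4; exact test, adjusted p = 0.167). For the remaining pair, PSMB10 against PSMB7, it was -1.93 ± 0.24 (SD, n = 4; exact test, adjusted p = 0.167). As ratios per base, PSMB8 to PSMB5 was 0.304, 0.602, 0.451 and 0.514 and PSMB9 to PSMB6 was 0.160, 0.813, 0.652 and 0.644 in replicates 1 to 4. All of these ratios were lowest in replicate 1, and without it the PSMB9 difference was -0.51 ± 0.19 (SD, n = 3). The ratio of PSMB9 to PSMB8 was 1.91, 1.85 and 1.83 in replicates 2 to 4, with overlapping intervals, and 0.957 (0.904 to 1.01) in replicate 1.

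**Figure D2:**
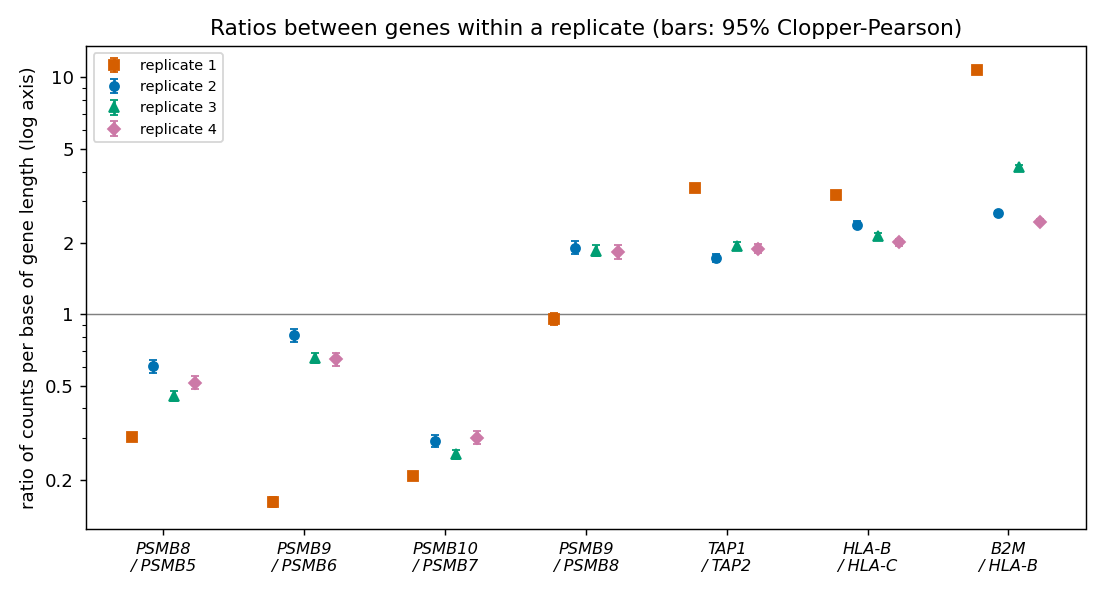
Ratios of counts per base of gene length between pairs of genes within each replicate, on a log axis, with bars for 95% Clopper-Pearson intervals (counting error only). The 3 immunoproteasome to constitutive ratios on the left stay below 1 in every replicate, and replicate 1 (squares) lies apart from the other 3 in each ratio drawn.

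PSMB8, TAP1, PSMB9 and TAP2 are neighbours on chromosome 6, and one noncoding gene overlaps part of them. PSMB8-AS1 (chr6:32811863-32814277, plus strand) shares 1292 bases with the span of TAP1 and 850 with that of PSMB8, on the opposite strand. It had 533, 443, 512 and 413 counts, which is 7.91% to 10.7% of the TAP1 count and 15.6% to 27.1% of the PSMB8 count. Whether counting used the strand is not given in the sources used here, so reads of PSMB8 and of its antisense partner may not be told apart. MIR6891, within the span of HLA-B, had 0 counts in all 4 replicates.

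Variation between replicates was summarized as the range, the highest minus the lowest log2(TPM + 1), and called when over 1, a 2-fold span. The range was over 1 in 7 of the 9 genes, against 59.1% of the detected genes. Without replicate 1 it was over 1 in 1 of 9, against 22.7%. That gene was TAPBP, at 1.04, but it was B2M with TMM (1.31), DESeq2 (1.28) and upper-quartile scaling (1.09) and after centring on GC content (1.496), each of which put TAPBP at 0.70 to 0.91. The median range of the 9 genes fell from 1.82 to 0.51 when replicate 1 was left out, while that of all detected genes fell from 1.16 to 0.63. HLA-C and TAP2 stood at percentiles 86.0 and 84.0 of the detected genes with all replicates and at 12.9 and 22.4 without replicate 1. B2M and HLA-E went the other way, from 38.3 to 74.96 and from 16.4 to 47.9, since replicate 1 was not an extreme for them.

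**Figure D3:**
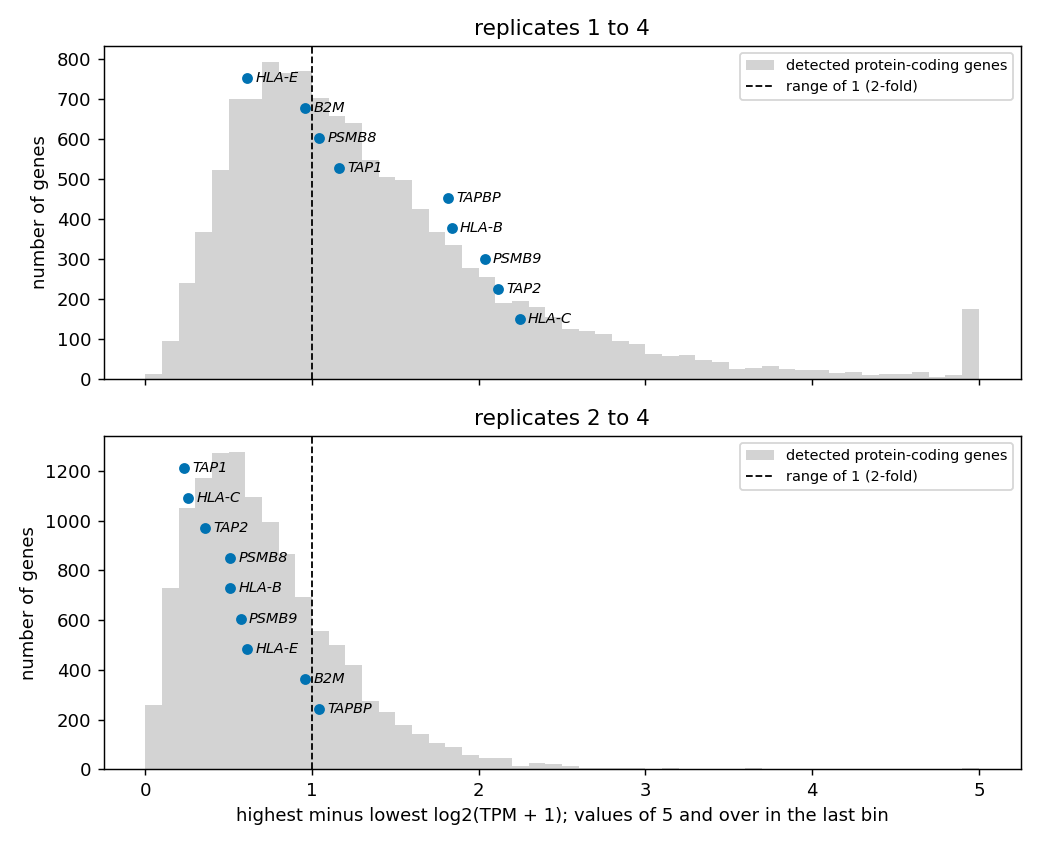
Number of detected protein-coding genes by their range in log2(TPM + 1), over replicates 1 to 4 (top) and 2 to 4 (bottom), with the 9 genes as points at their own ranges (the height of a point has no meaning). With all replicates 7 of the 9 points lie right of the dashed line at 1, and without replicate 1 only TAPBP does, at 1.04, where TMM, DESeq2 and upper-quartile scaling or GC centring place B2M there instead.

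The order of the replicates was similar for most of the genes. Replicate 1 was the lowest in 7 of 9, all but HLA-E and B2M, against 37.5% of the detected genes. The highest values were in replicates 2 and 3 in 7 of 9, all but B2M and TAPBP, against 14.9%. Among replicates 2 to 4, replicate 4 was lowest in 8 of 9, all but TAPBP, against 24.7%. For the 7 genes highest in replicates 2 and 3 this follows by definition, so it is not a separate result for them. These 3 counts were 7, 7 and 8 also with TMM, DESeq2 and upper-quartile scaling and after centring on GC content, though after GC centring B2M took the place of HLA-E among those highest in replicates 2 and 3. With TPM over all genes they were 9, 8 and 8, so HLA-E and B2M were then also lowest in replicate 1. The shares of the detected genes in this paragraph are those for TPM over protein-coding genes. They are not given for the other settings, which also move the detected genes, so these counts have no background of their own there. The summed leukocyte markers were likewise highest in replicates 2 and 3 and lowest in replicate 1, with 11.5, 52.0, 43.2 and 24.97 TPM. Most of each sum was CD68, with 7.94, 43.9, 38.2 and 16.1 TPM. CD14, the only other one detected, was also lowest in replicate 1 but highest in replicate 4, at 8.92 TPM. PTPRC, CD3E and LYZ had 3, 13 and 4 counts in replicate 1 and 0 in replicates 2 to 4. The part of leukocyte markers in the 3 counts of the class I genes was not tested. The full order of replicate 2 over 3 over 4 stood in 7 of 9, against 11.5%, but in 0 with TMM, 1 with DESeq2 and 3 with upper-quartile scaling and in 2 after GC centring, so replicates 2 and 3 could not be ranked. TMM scaling raised the median log2 level of the detected genes in replicate 3 by 0.22 and moved replicates 2 and 4 by -0.11 each.

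Replicate 4 was then set against replicates 2 and 3 gene by gene. From replicate 4 to replicate 2 the 9 genes differed by -0.24 (TAPBP) to 0.63 (B2M) in log2(TPM + 1), with a median of 0.51, where the median of all detected genes was -0.01. From replicate 4 to replicate 3 they differed by -1.04 (TAPBP) to 0.96 (B2M), with a median of 0.19, where the median of all detected genes was -0.30.

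Genes induced by interferons outside the pathway differed far more between the same replicates. All 21 of the list were detected and had a range over 1 with and without replicate 1, against 59.1% and 22.7% of the detected genes. Their median range was 4.14 in replicates 2 to 4. The 2 highest values were in replicates 2 and 3 in all 21, against 14.9%. IFI6, a mitochondrial interferon-induced protein with the widest range of the list, had 11.6, 2417, 2442 and 29.2 TPM. DDX58, the RNA sensor RIG-I with the narrowest, had 24.9, 48.1, 40.0 and 13.6 TPM. From replicate 4 to replicate 2 the list differed by 1.75 to 7.35, with a median of 3.78, so its smallest difference exceeded the largest of the 9 class I genes. From replicate 4 to replicate 3 the list differed by 0.68 to 7.12, with a median of 3.62, and here its low end overlapped B2M. The 12 of 15 genes of this list with a promoter entry that held the full ISRE letters stand beside the 5 of 8 of the class I genes. The lists were not compared by a test.

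**Figure D4:**
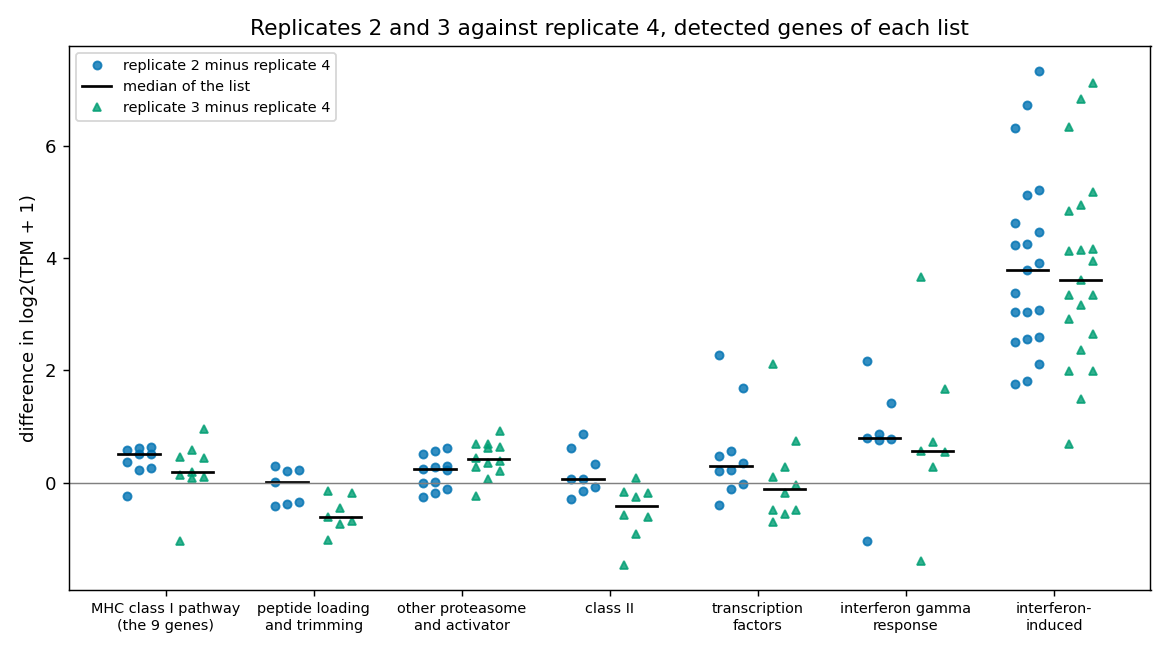
Difference in log2(TPM + 1) of replicate 2 (circles) and replicate 3 (triangles) from replicate 4 for the detected genes of each list, with black lines for medians. The class I genes lie between -1.04 and 0.96, and the interferon-induced genes between 0.68 and 7.35.

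NLRC5 and IRF1, transcription factors that act on class I promoters, were named after their values were seen. NLRC5, the class I transactivator, had 9.20, 37.0, 18.8 and 10.8 TPM, highest in replicate 2 and lowest in replicate 1. IRF1, which binds the ISRE, had 33.9, 126, 90.5 and 128 TPM and was highest in replicate 4. All 10 factors of the list were detected, and 6 had a range over 1, or 3 without replicate 1, near the 59.1% and 22.7% of all detected genes. RELA, a subunit of NF-kB, had the widest range, with 33.3, 192, 156 and 129 TPM, and RFXANK, a subunit of the RFX complex, the narrowest, with 69.9, 78.1, 65.9 and 67.7 TPM.

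All 7 other genes of peptide loading and trimming were detected, and 3 had a range over 1, or 1 without replicate 1, against 59.1% and 22.7% of the detected genes. Replicate 1 was the lowest in 4 of the 7, against 37.5%, and replicate 4 was the lowest of replicates 2 to 4 in 0 of the 7, against 24.7%. HSPA5, an endoplasmic reticulum chaperone with the widest range, had 117, 719, 519 and 714 TPM, and CANX, the chaperone calnexin with the narrowest, had 417, 317, 243 and 276 TPM. Of the 12 other proteasome and activator genes, all were detected, and 2 had a range over 1, or 0 without replicate 1, against the same 59.1% and 22.7%. PSME3, a nuclear activator subunit, had the widest range, with 28.9, 87.6, 101 and 87.6 TPM, and PSME1, a subunit of the interferon-inducible activator, the narrowest, with 415, 443, 396 and 379 TPM. Replicate 4 was the lowest of replicates 2 to 4 in 8 of these 12, against 24.7%.

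Among the 10 other class I and class I-like genes, 9 were detected and 6 had a range over 1, or 1 without replicate 1, against 59.1% and 22.7%. HLA-G, a heavy chain known from the placenta, was not detected, with 1 count in replicate 1 and 0 in the others. RAET1G, a ligand of the receptor NKG2D, had the widest range, with 381, 27, 15 and 22 counts, and its TPM was highest in replicate 1 at 13.3. MICA, another such ligand, had the narrowest of those detected, with 27.8, 34.7, 33.3 and 36.1 TPM. The class II genes stood far lower than the class I genes. Of 10, 8 were detected, with a summed level of 43.9 to 101 TPM against 4625 to 6989 TPM for the 9 class I genes. CD74, the invariant chain, had 2.01, 21.1, 7.88 and 23.6 TPM, and HLA-DQB1 33.8, 37.3, 38.6 and 46.1 TPM.

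Replicate 1 differed from the others along GC content, and most of the 9 genes are rich in GC. GC content was known for 11889 of the 12165 detected genes (97.7%), with a median of 49.1%, against 55.3% for the 9 genes. In 20 bins of GC content the median difference of replicate 1 from the mean of replicates 2 to 4 ran from -0.88 to 0.95 in log2(TPM + 1). Beside its bin, HLA-C was at -2.10 where the median was -0.53, and TAP2 was at -1.91 where the median was -0.08, percentile 4.38 of its bin. TAP1 was at -1.05 and TAPBP at -1.39 where the median of their bin was -0.61. B2M, with the lowest GC content of the 9 at 39.4%, was at 0.27 where the median was 0.79. In all, 8 of the 9 genes lay below the median of their bin, and HLA-E, at -0.07 where the median was -0.43, lay above. After centring within bins, the range of TAP1 was 0.59 and that of PSMB8 0.65, both no longer over 1, while that of B2M rose from 0.96 to 1.496. The part of GC content, RNA classes and depth in these differences was not tested.

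**Figure D5:**
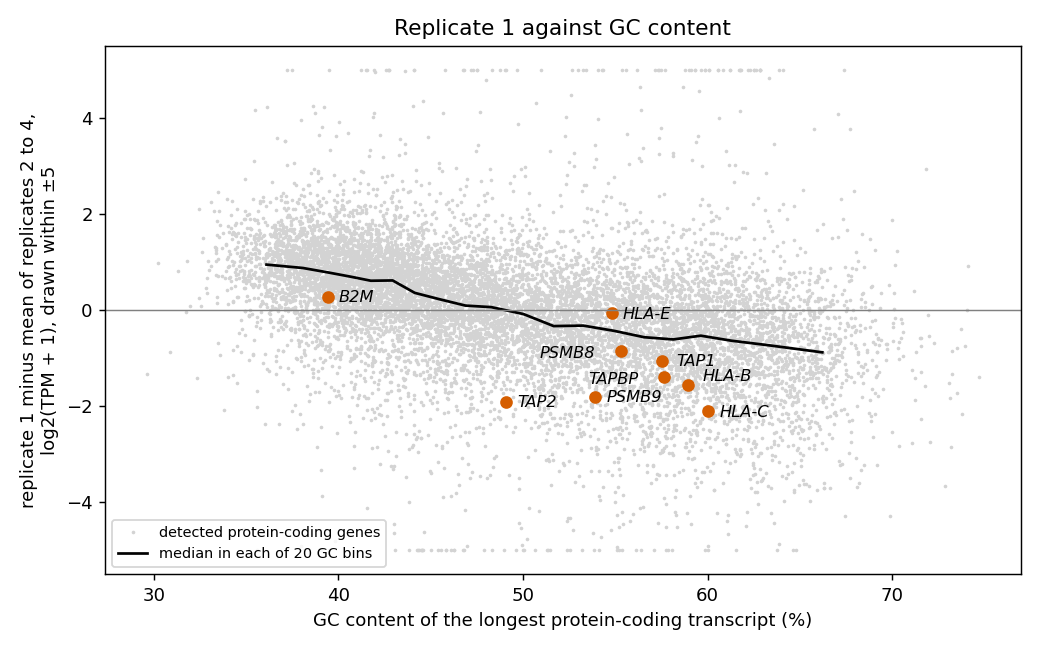
Difference of replicate 1 from the mean of replicates 2 to 4 in log2(TPM + 1) against GC content of the longest protein-coding transcript, for detected genes (grey, drawn within ±5), with a black line for the median of each of 20 bins and the 9 genes in orange. HLA-E alone of the 9 lies above the line, and TAP2 lies 1.82 below it.

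Likeness of pattern was measured as the root mean square difference between centred log2(TPM + 1) values over the 4 replicates. Among the 9 genes, HLA-C and TAP2 were closest at 0.0957 and HLA-C and B2M farthest at 1.07. HLA-E was closest to B2M, at 0.212. With only 4 points many genes come close to any pattern, and between 147 and 671 detected genes lay within 0.2 of each of the 9. The nearest outside genes were AMIGO1 for HLA-B, KAT2A for HLA-C, UTP15 for HLA-E, ALG5 for B2M, ERAL1 for TAP1, EIF5A for TAP2, MELTF for TAPBP, FBXO31 for PSMB8 and PFN1 for PSMB9. AMIGO1 had only 0.30, 3.65, 2.75 and 2.28 TPM. At such levels the pseudocount of 1 understates folds, so AMIGO1 and HLA-B are less alike in TPM than their distance makes them appear. Of the 27 nearest genes, 3 for each, 0 were on any of the lists.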

How the data were processed

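Total RNA of untreated HaCaT cells had been sequenced in 4 biological replicates. Groups came from the labels. The authors deposited raw counts per gene with gene lengths for all 4 replicates, RPKM for replicates 1 and 2 and TPM for replicates 3 and 4. The submitters' processing notes name HISAT2, HISAT, TopHat2, Bowtie2 and the build hg19, without versions. The counting program and its use of strand are not given in the sources used here.

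Since the deposited units differ, TPM was computed from counts and lengths over protein-coding genes. A gene counted as detected when its TPM averaged more than 1, and a pseudocount of 1 was used on the log2 scale, which understates folds of low genes. There being no second condition, differential expression was not tested. Pairs of genes were tested within replicates by sign-flip permutation. edgeR and DESeq2 gave scaling factors only, as alternatives. Other alternatives were the TPM denominator, the deposited values, no length correction, pseudocount 0.1 or none, other detection filters, upper-quartile scaling, GC centring, leaving out each replicate and, added after seeing the data, exon lengths of GENCODE release 29. Scripts were tested on simulated data.

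The genes and lists were chosen with earlier results of these data known. Named were the 9 genes, the genes of widest and narrowest range in a list, genes paired with one of the 9, overlapping genes and the 3 nearest in pattern, of which the first is printed. Markers and 2 transcription factors were named beside these, and an item withheld for evaluation is not reported here. The protein-coding counts of 16250026 to 55607710 put a floor of 3 counts at 0.0539 to 0.185 CPM. No pair of libraries had the same count in more than 2.27% of genes with a mean count over 10, so none was a copy of another. GC content and lengths were matched by symbol to GENCODE release 29 on GRCh38. Promoters came from RefSeq (GRCh38.p14). No coordinate was converted between builds. The software was R 4.3.3 with edgeR 4.0.16 and DESeq2 1.42.0, and SciPy 1.17.1, matplotlib 3.10.9, pandas 2.3.3 and NumPy 2.4.6 under Python 3.11.15.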

Additional observations from a re-analysis of the deposited data

Results flagged for a closer look

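For 9 genes, 16 ratios between genes, the ratio of B2M to the summed heavy chains and 12 summed levels of gene lists, the distance of the highest or lowest replicate from its nearest neighbour was set against the whole span of the 4 values. Of these 38 sets, 3 held a replicate past Dixon's limit for 4 samples, where chance gives about 1 in 20, or 1.9 sets. The sets share genes and replicates. All 3 were ratios in replicate 1. The ratio of HLA-E to PSMB9 was 4.12 there, against 1.18 to 1.28 in replicates 2 to 4. The ratio of TAP1 to TAP2 was 3.43 there, against 1.73 to 1.95. The ratio of PSMB9 to PSMB8 was 0.957 there, against 1.83 to 1.91.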

How the results depend on the processing

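The order of the means held in all 8 neighbouring pairs for TPM over all genes and for the deposited values, in 7 with GENCODE release 29 lengths, which moved the mean of B2M from 3425 to 1901 TPM, in 7 to 8 on leaving out each replicate, and in 5 with no length correction (CPM). Without length correction 4 differences turned, HLA-C minus HLA-E to -0.70, PSMB9 minus TAPBP to -1.56, TAPBP minus TAP1 to 0.33 and PSMB8 minus TAP2 to -0.999 (log2). Leaving out each replicate gave -0.21 to 0.56 for HLA-C minus HLA-E, and -0.25 to 0.14 for TAPBP minus TAP1, so the order of these genes was not fixed. It also gave 1 to 7 of the 9 genes with a range over 1, and 22.7% to 54.6% of the detected genes, in each case lowest without replicate 1. The order of replicates 2, 3 and 4 stood in 7 genes, and in 0 with TMM factors, 1 with DESeq2 size factors, 3 with upper-quartile scaling and 2 with GC content centred. No comparison between groups, paired or not, was possible because the samples form 1 group. Across all results, 234 recomputed values stayed within the set limits, 31 moved and 9 changed direction. The 4 libraries are 1 line and 1 condition, replicate 1 differs from the others in RNA classes, GC content and depth at once, and these cannot be told apart. Each of the 9 genes had at least 1522 counts in every replicate.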

Other observations

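Among the class II genes, HLA-DQB1 was at 33.8 to 46.1 TPM in the 4 replicates, while its partner chain HLA-DQA1 was not detected, with 0, 12, 7 and 11 counts. Both genes belong to a family of near-identical sequences. Among genes known from the interferon gamma response, 7 of 8 were detected. CXCL10, a chemokine with the widest range, had 0, 32, 143 and 1 counts in replicates 1 to 4, and CD274, which encodes PD-L1 and had the narrowest, had 0.65, 2.61, 2.08 and 1.09 TPM.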
